A study of Homo sapiens with 6 samples.

Results

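The genes described here are those that the authors' deposited annotation places in the KEGG pathway of the spliceosome. The rule took each row that carries the pathway term and left out the heat shock genes whose symbol starts with HSPA, which share the term. The term stood on 507 of the 61806 genes in the table, 19 of these were HSPA genes, and 488 genes were members. Of the 488, 127 encode splicing proteins and were sorted into 10 classes by symbol. A further 307 are pseudogenes by their GENCODE type or their deposited description, and 54 are other genes, mostly without a known role in splicing. A gene was tested where its mean was at least 1 FPKM (assigned fragments scaled to gene length and library size), which 166 members passed, 117 of them in the classes.

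RNA with a poly(A) tail was sequenced from HEK293, a human embryonic kidney line. In 3 libraries, called mutant here, the cells carried the variant rs16851030, brought in by CRISPR with homology-directed repair. In the other 3, called wild type, they did not, and no further treatment separates the groups in the labels. The variant lies in the transcript of ADORA1, the adenosine A1 receptor gene, and whether the mutant libraries came from 1 clone, and how many alleles carry the variant, is stated neither in the labels nor in the table.

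The spliceosome removes introns from pre-mRNA. Small nuclear ribonucleoproteins (snRNPs) carry it out: each holds a U-rich RNA inside a ring of Sm or LSM proteins, U1 binds the 5′ splice site, U2 with the SF3A and SF3B complexes binds the branch point, and the tri-snRNP with the PRPF proteins and the PRP19 complex then form and activate the catalytic core. SR proteins (genes named SRSF) mostly favour the use of an exon and hnRNP proteins often oppose it, and many of their transcripts are themselves regulated by splicing.

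Depth was 16013460 to 20349609 assigned counts per library. The first principal component over all tested genes held 74.4% of the variance, and the common biological coefficient of variation, a summary of the spread between replicates, was 0.0478. ADORA1 itself was near the lower end of detection, at 0.59, 0.41 and 0.44 FPKM in wild-type replicates 1 to 3 and 0.56, 0.65 and 0.51 FPKM in mutant replicates 1 to 3. Of 6 markers of HEK293 cells, PAX2 was low, at 0.04 to 0.27 FPKM, and the others were at 0.71 FPKM or more in each library. Of 15 markers of other cell types, 13 were below 1 FPKM in each library and the leukocyte genes PTPRC and CD3E were listed at 0. The list summed to 3.91 to 4.27 FPKM in the wild type and 6.46 to 6.87 FPKM in the mutant, and without COL1A1 it summed to 1.08 to 1.91 FPKM over the 6 libraries. Of the 5 HEK293 markers tested, 3 were lower in the mutant, among them VIM and NEFM, by log2 fold changes of -0.84 and -0.34, EYA1 was higher by 0.39, and LHX1 was not called at 0.40. VIM lies on chromosome 10, where 65% of the tested genes fell. The part of these markers in the results was not tested. In bulk RNA, fewer cells of a type and less RNA per cell cannot be told apart.

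Transcripts of splicing proteins were lower in the mutant in most classes, by small amounts. In the quasi-likelihood test of edgeR, with Benjamini-Hochberg adjustment over all 12550 genes and a threshold of 0.05, 82 of the 117 classed members fell, 7 rose and 28 did not pass. Among all genes tested, 28.7% fell and 29.4% rose, so the share of members that fell, 70.1%, stood above the background and the share that rose, 5.98%, below it. The median log2 fold change was -0.22 over the classed members and 0.00 over all genes. Their falls were shallow: SNRPB was the 1 classed member past a fold of 1.5 in either direction, against 16% of all genes. Such changes were rarer among abundant genes: 8.28% of those with a mean of at least 5 FPKM passed that fold. The FPKM values of the groups did not overlap for 80 members that were lower and 9 that were higher, where the same count over all genes gave 28.1% lower and 34.8% higher. All classed members together summed to 5281.81 to 5404.1 FPKM in the mutant libraries and to 5871.52 to 6058.51 FPKM in the wild-type libraries, 11.1% lower in the mutant by the means, while the sum over all genes in the table was 2.5% lower.

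**Figure D1:**
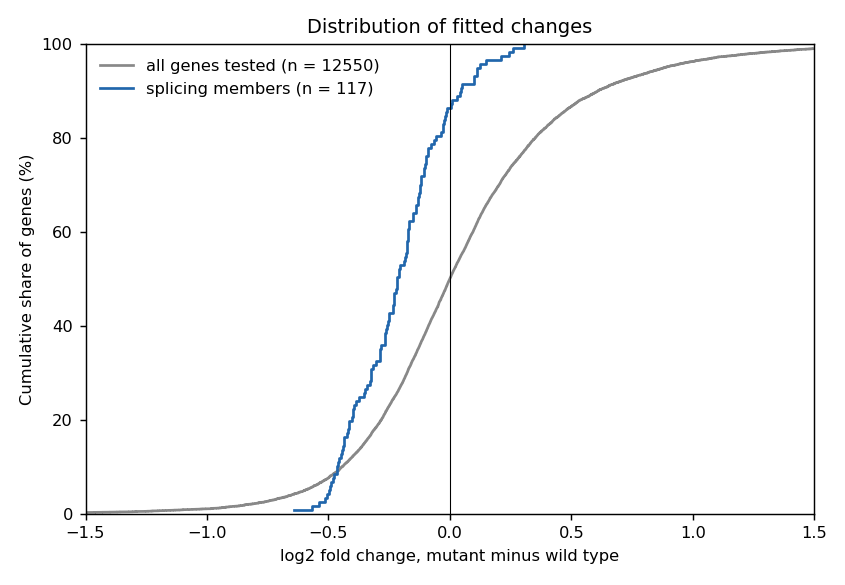
Cumulative share of genes (%) against the fitted log2 fold change, mutant minus wild type, for 12550 genes tested and the 117 classed members. The members' curve lies to the left of zero over most of its height and spans -0.64 to 0.31, while that of all genes crosses 50% near zero and is wider.

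Level and chromosome both bear on the background. The classed members are abundant, with a median of 34.9 FPKM, and among the 1723 genes between the lower and upper quartile of their levels 44.5% fell, with a median of -0.09. Of the 59 members in that range, 44 fell. A fold of 1.5 in either direction was passed by 6.09% of the genes in that range and by 1.69% of the members in it. This range was chosen after the values were seen. Chromosomes 10, 16, 20 and 22 had medians of -0.36, 0.29, -0.13 and -0.16 over their tested genes. On chromosome 10, 65% of the tested genes fell and 8.94% rose, and on 16, 62.6% rose and 5.71% fell, whereas 20 and 22 went both ways, with 43.8% and 41.7% lower and 23.4% and 16.5% higher. On those chromosomes lay 15 classed members, of which 13 fell: 3 of 3 on chromosome 10, 6 of 6 on 20, 4 of 4 on 22 and neither of the 2 on 16. Without those chromosomes, 69 of 102 classed members fell and 7 rose, with a median of -0.18, where 27.4% of all genes fell.

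**Figure D2:**
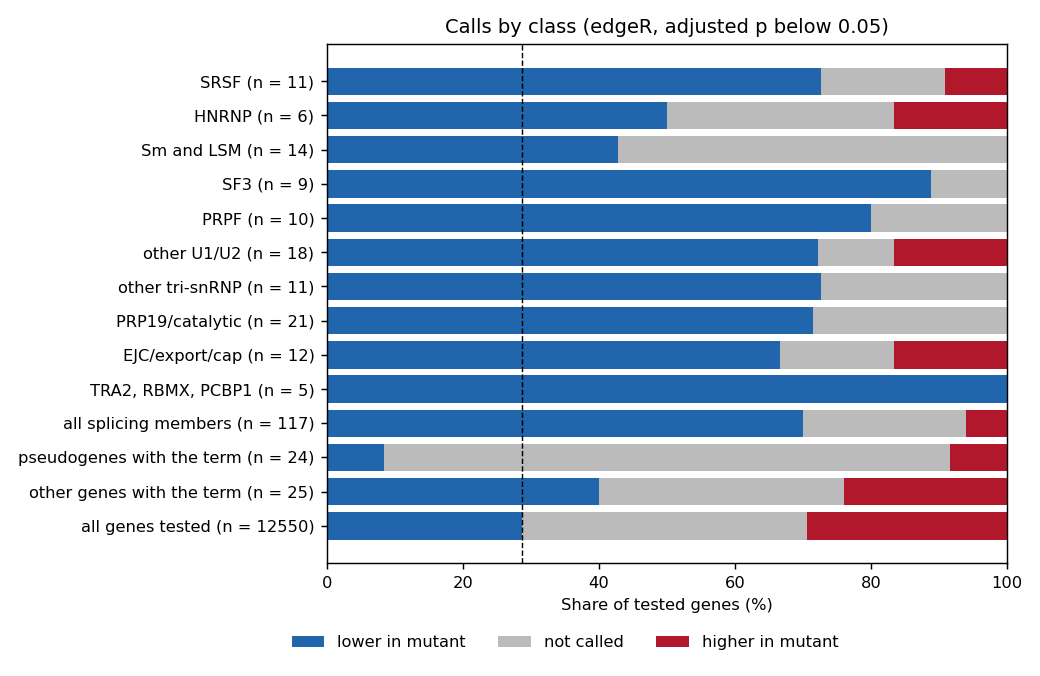
Share of tested genes (%) that were lower, not called or higher in the mutant, by class, with the number tested as n; the dashed line marks the 28.7% of all genes that fell. Each class of splicing proteins lies above the line, from 42.9% of Sm and LSM genes, which is below the 44.5% of genes of like level, to the 5 of 5 genes of the class with TRA2, RBMX and PCBP1, and pseudogenes with the term lie below it, at 8.33%. Of the 24 pseudogenes tested, 18 had fitted changes below 0, so the low share called need not mean that they did not fall.

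Promoters of the classed members were compared because most of these genes moved in one direction. RefSeq windows on GRCh38.p14, 250 bases before to 50 bases after the start, were matched by symbol for 101 of the 117. Of 17 strings searched on both strands, the one with the largest difference in share was CCGGAAG, a core of ETS-family sites, found in 46.5% of these promoters, 20.8% of those of all tested genes, 26.5% of those of genes that fell and 10.7% of all promoters in the table. Within the members it was not more common among falls: it stood in 31 of 73 members that fell, 12 of 22 not called and 4 of 6 that rose. The last 2 groups are small, and a link with direction was not tested. Promoters of genes of like level were not compared. By class it ranged from 6 of 8 SF3 genes to none of 4 HNRNP genes. It was singled out after the matches of all 17, some of which overlap each other, had been seen. A match is a run of letters, not a bound site.

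The windows shown are the 100 bases before the start for named members. Of the 40 named members matched, 15 held the string there, and for 5 of these the window lay outside the gene as deposited. All 5 fell, but most named members were chosen as falls, so this gives no link between the string and the direction. Capitals mark the string on either strand, read 5′ to 3′ on the strand of the gene.
MAGOH, chr1:53238519-53238618, minus strand: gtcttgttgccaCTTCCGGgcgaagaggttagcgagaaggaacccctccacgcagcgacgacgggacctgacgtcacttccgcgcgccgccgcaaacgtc
ALYREF, chr17:81891588-81891687, minus strand: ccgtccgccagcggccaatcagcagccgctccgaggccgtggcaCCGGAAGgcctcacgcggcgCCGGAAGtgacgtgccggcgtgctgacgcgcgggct
PRPF6, chr20:63981032-63981131, plus strand: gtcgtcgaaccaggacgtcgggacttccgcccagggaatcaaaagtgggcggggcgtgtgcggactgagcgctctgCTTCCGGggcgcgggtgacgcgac
SF3B4, chr1:149927804-149927903, minus strand: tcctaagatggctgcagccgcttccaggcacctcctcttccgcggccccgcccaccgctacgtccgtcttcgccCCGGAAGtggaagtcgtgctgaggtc
PCBP1, chr2:70087377-70087476, plus strand: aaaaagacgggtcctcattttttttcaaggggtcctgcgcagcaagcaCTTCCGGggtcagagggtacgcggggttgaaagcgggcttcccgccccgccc
In ALYREF the string occurs at 2 places, starting 56 and 36 bases before the start, and in PRPF6 and SF3B4 it starts 24 and 26 bases before it. The other strings differed less, in percentage points, from tested genes. GGGCGG (GC box) was in 62.4% of the members' promoters and 72.9% of those of tested genes, CCAAT in 39.6% and 38%, CGCGAG in 28.7% and 29%, CACGTG (E-box) in 8.91% and 10.6%, and TATAAA in 5.94% and 4.91%. CCGGAAGT, which contains the first string, was in 29.7% and 9.7%. AAGATGGC and ATGGCGGC (YY1) were in 10.9% and 11.9% of the members' promoters and in 6.01% and 7% of those of tested genes. GCATGCGC, part of the NRF1 site, was in 7.92% and 5.93%, the shorter NRF1 palindrome around it in 2.97% and 2.45%, and the longer one in 0% and 0.262%. TGACGTCA was in 2.97% and 3.52%, TGATGCAA in 0.99% and 0.436%, GAANNTTC in 3.96% and 4.32%, and TTCNNGAA in 7.92% and 5.8%. The 10-letter palindrome around CGCGAG was in 4.95% and 1.06%, and in 1.49% of the promoters of all genes that fell. Its 5 promoters were among the 73 of members that fell, with none of the 22 not called and none of the 6 that rose. As 73 of the 101 matched members fell, most of any 5 would be falls by that share alone. This split was picked after the matches were seen and was not tested.

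The Sm and LSM proteins form the rings around the snRNAs. Of 14 tested, 6 fell and none rose. The Sm genes were the larger share of this: 5 of 7 fell, with a median of -0.25, against 1 of 7 LSM genes, with a median of -0.02; LSM1, which lacks the term and is not among them, fell too. This split into rings was made after the values were seen, and the difference between the rings was not tested. Without chromosomes 10, 16, 20 and 22, 4 of 12 Sm and LSM genes fell (33.3%), with a median of -0.04. Without those chromosomes, 27.4% of all genes fell. SNRPB encodes SmB, a core Sm protein, and spans bases 2461634 to 2470853 of chromosome 20 on GRCh38. It stood at 77.9, 77.1 and 80 FPKM in wild-type replicates 1 to 3 and at 48.2, 54.6 and 51.4 FPKM in mutant replicates 1 to 3. The groups lay far apart, and SNRPB showed the largest fall of the classed members tested, 1.56-fold lower in the mutant (log2 fold change -0.64, SE 0.046, n = 3 and 3 libraries, edgeR adjusted p = 2.33e-09). SNRPD3, another Sm gene, on chromosome 22, went from 39.4 ± 1.7 to 32.2 ± 0.42 FPKM (SD, n = 3), with no overlap. LSM3, of the ring on U6 snRNA, was the LSM gene that fell, from 33.3, 34 and 35 FPKM to 27.2, 29 and 28.5 FPKM.

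SNRPD2 was the most abundant gene of this class and was not called. Its wild-type values were 199.8, 193 and 203 FPKM and its mutant values 184, 215 and 204 FPKM, so the mutant libraries lay on both sides of the wild type (log2 fold change -0.02, 95% interval -0.12 to 0.09, edgeR adjusted p = 0.796). The fitted value was above 0 with library totals (0.02) or upper quartiles (0.02) as the scaling, and without mutant replicate 1 (0.05), so no direction can be given. Several Sm genes share sequence with pseudogenes. Summed with 15 named pseudogenes, which held 27.6% of the sum, SNRPG had an adjusted p of 0.069 (edgeR) and was not called, while alone it fell with an adjusted p of 0.0462. SNRPE fell with or without its 9 pseudogenes, which held 33.1% of its sum, and SNRPEP4 by itself stood at 146 FPKM in the wild type. How reads were split between these copies cannot be told from the counts.

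SF3A and SF3B make up the part of U2 that holds the branch point. Of the 9 genes, 8 fell, none rose and SF3B6 did not pass, with a median of -0.18. PHF5A, a small SF3B subunit, had 66.4, 64.9 and 69.7 FPKM in the wild type and 45.7, 49.7 and 49.4 FPKM in the mutant. The groups did not overlap, and its fall was 1.42-fold (log2 fold change -0.51, SE 0.055, edgeR adjusted p = 4.51e-07). SF3B4, a subunit that contacts RNA near the branch point, went from 77.1, 79.5 and 86.2 FPKM to 61.7, 57.5 and 57 FPKM, with every mutant library below the wild type. SF3A1 went from 65.9 ± 4.35 to 49.5 ± 0.79 FPKM (SD, n = 3), and PHF5A and SF3A1 both lie on chromosome 22.

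SF3B1, the scaffold of SF3B and a gene often mutated in blood cancers, fell little. Its values were 62.9, 63.4 and 62.4 FPKM in the wild type and 58.6, 57.1 and 59.5 FPKM in the mutant, tight groups that did not overlap (1.10-fold lower, log2 fold change -0.14, SE 0.037, edgeR adjusted p = 0.00327). SF3B5, the most abundant of the class, went from 192 ± 9 to 175 ± 9.31 FPKM (SD, n = 3). Its adjusted p was 0.00894, but 0.066 without mutant replicate 1 and 0.0531 without wild-type replicate 3 (edgeR). The SF3B subunit SF3B3 lacks the term. Of the 7 tested genes that belong to the classes by symbol but lack it, 4 fell, 2 did not pass and SF3B3 rose by 0.14. The falls were LSM1, BUD31, DDX17 and HNRNPC, at -0.43, -0.29, -0.22 and -0.13 on the log2 scale. SF3B3 lies on chromosome 16 and DDX17 on chromosome 22.

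The PRPF genes showed the lowest median of the classes, -0.41, with 8 of 10 lower and none higher. These proteins build the tri-snRNP and the active site. PRPF38B, which is related to a factor of the step before catalysis, stood at 25.8, 31.3 and 28.8 FPKM in the wild type and 21.5, 20.9 and 20.1 FPKM in the mutant. The groups did not overlap, although wild-type replicate 1 was the lowest of its group. PRPF6, a bridge between U5 and U4/U6 on chromosome 20, went from 66.6, 67.3 and 68.7 FPKM to 49, 48 and 53.3 FPKM (1.38-fold lower, log2 fold change -0.46, SE 0.045, edgeR adjusted p = 1.17e-07). PRPF3, of the U4/U6 particle, went from 20.7 ± 1.1 to 15.4 ± 0.56 FPKM (SD, n = 3).

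PRPF19, the ubiquitin ligase that gives the PRP19 complex its name, was the most abundant of these genes. It went from 114, 110.0 and 114 FPKM to 84.4, 86.2 and 85 FPKM, 2 narrow groups with a wide gap between them (log2 fold change -0.44, SE 0.038, edgeR adjusted p = 3.09e-08). PRPF8, the scaffold of the catalytic core, did not pass. Its wild-type values of 99.6, 103 and 90.5 FPKM spanned most of its mutant values of 93.6, 89.7 and 94.9 FPKM (log2 fold change -0.11, 95% interval -0.20 to -0.01, edgeR adjusted p = 0.055). It was called lower in 3 of the alternative settings, among them the fit without wild-type replicate 3, where the adjusted p was 0.00508.

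**Figure D3:**
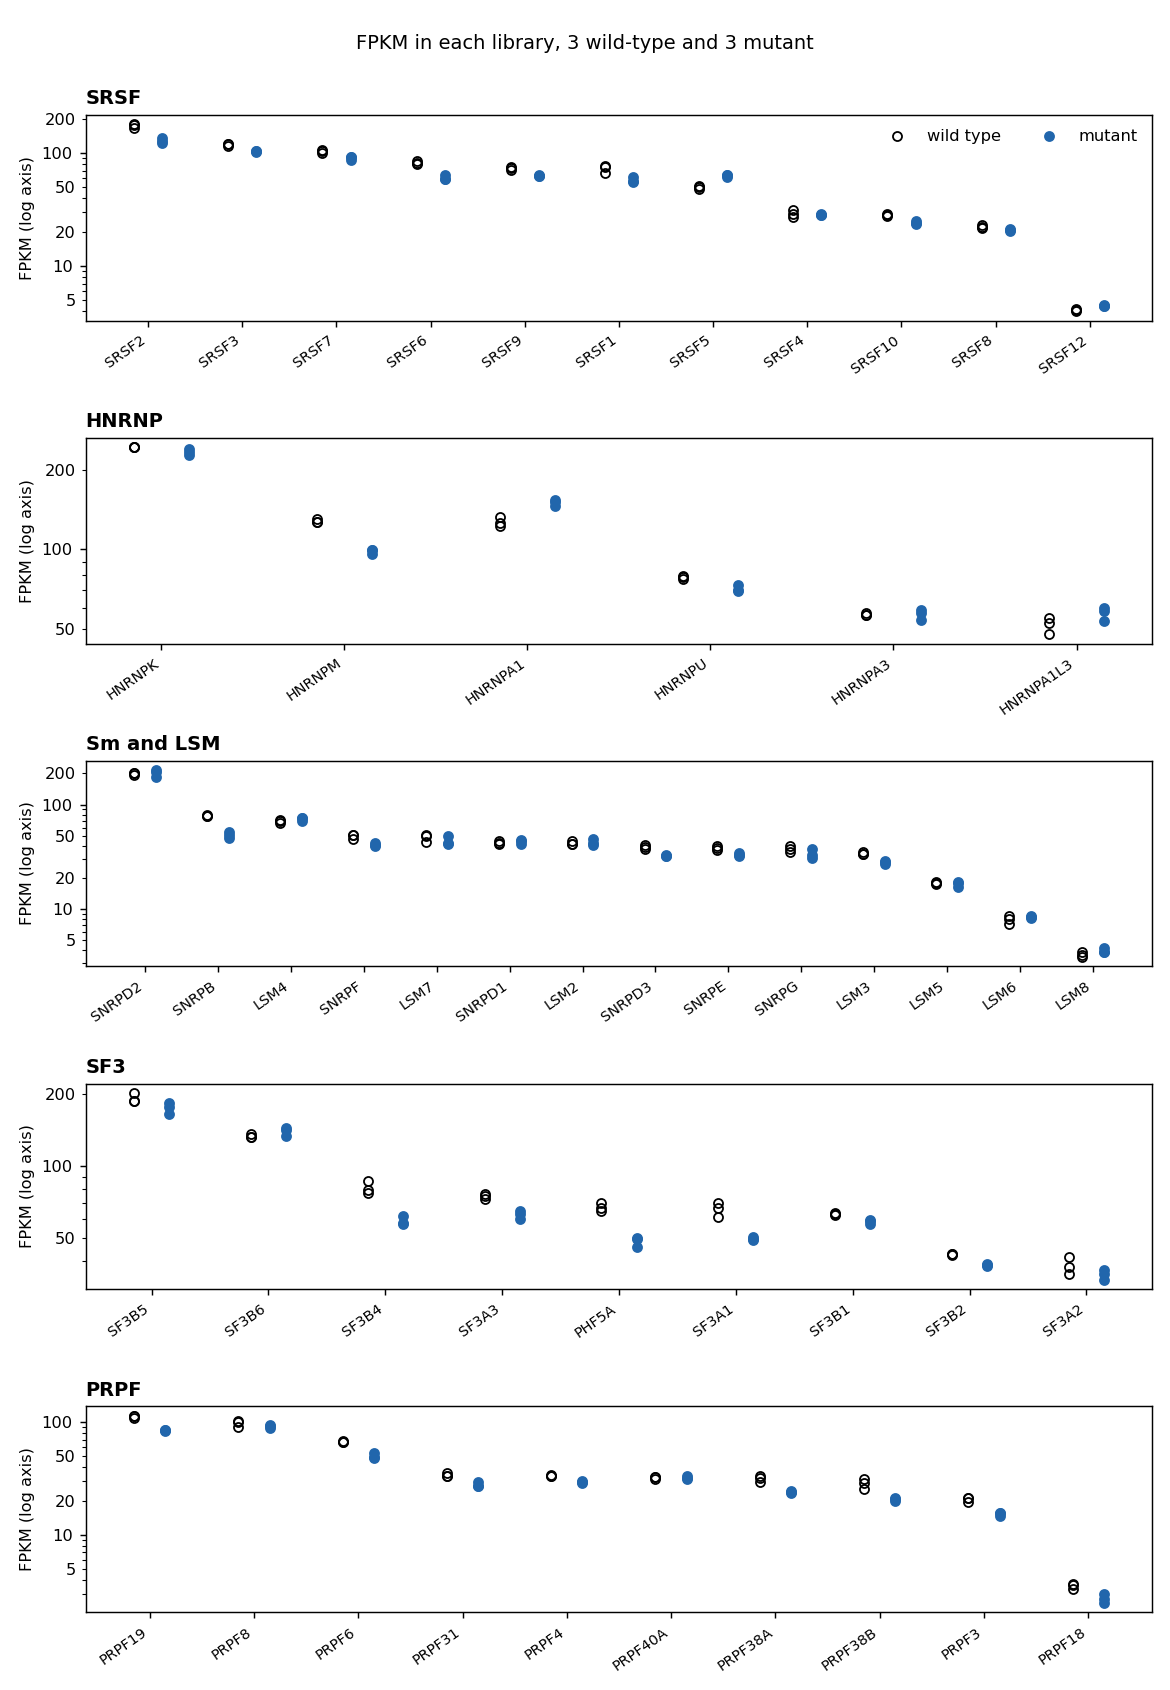
FPKM (log axis) in each of the 6 libraries for the tested genes of the SRSF, HNRNP, Sm and LSM, SF3 and PRPF classes, ordered by level; open circles are wild-type libraries and filled circles mutant libraries. SNRPB, SRSF2 and PRPF19 show separate groups with the mutant lower, SRSF5 and HNRNPA1 show the mutant higher, and the groups of SNRPD2 overlap.

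Among SR proteins, 8 of 11 fell and SRSF5 rose, with a median of -0.23, and the class summed to 15.1% less FPKM in the mutant. SRSF2, an SR protein that acts on exon inclusion and is also mutated in blood cancers, was the most abundant. It had 169, 181 and 179 FPKM in the wild type and 136, 128 and 124 FPKM in the mutant, with no overlap (1.39-fold lower, log2 fold change -0.48, SE 0.043, edgeR adjusted p = 4.67e-08). SRSF6, on chromosome 20, went from 82.7 ± 2.9 to 60.6 ± 2.82 FPKM (SD, n = 3). SRSF1, the founding SR protein, went from 67.5, 78 and 75.4 FPKM to 61.9, 56.7 and 55.6 FPKM, and here wild-type replicate 1 came closest to the mutant libraries.

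SRSF5 went the other way and had the largest rise of any classed member. Its values were 50.1, 51.2 and 48.7 FPKM in the wild type and 61.8, 63.9 and 63.9 FPKM in the mutant. The groups were tight and did not overlap (1.24-fold higher, log2 fold change 0.31, SE 0.040, edgeR adjusted p = 3.73e-06). SRSF4 and SRSF12 did not pass, at log2 fold changes of -0.06 and 0.10.

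The HNRNP class was small and mixed: of 6 tested, 3 fell, HNRNPA1 rose and 2 did not pass, with a median of -0.06, and the class sum was 2.6% lower in the mutant, near that of all genes. The share that fell, 50%, was near the 44.5% among genes at the level of the classed members. HNRNPM, which acts on the choice of alternative exons, went from 130.3, 127 and 127 FPKM to 99.5, 99.4 and 96 FPKM. These groups were far apart (log2 fold change -0.42, SE 0.037, edgeR adjusted p = 3.77e-08). HNRNPU, a nuclear matrix protein, went from 78.5 ± 1.24 to 71.2 ± 1.91 FPKM (SD, n = 3).

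HNRNPA1, a repressor of exons and a partner of telomeric RNA, rose from 123, 133 and 126 FPKM to 151, 146 and 154 FPKM, with no overlap (log2 fold change 0.21, SE 0.040, edgeR adjusted p = 0.000225). Summed with its 74 named pseudogenes, which held 14.3% of the sum, the log2 fold change was 0.20. HNRNPA1L3, an HNRNPA1-like gene by its symbol, was counted as a class member of its own and was not in this sum. How reads were split among these genes cannot be told from the counts. HNRNPK, the most abundant classed member, was at 244, 243 and 244 FPKM in the wild type and 228, 241 and 234 FPKM in the mutant. The groups just failed to overlap, and the call was fragile: the adjusted p was 0.0451, and it lay between 0.0534 and 0.147 when either of mutant replicates 1 and 3 or any wild-type library was left out (edgeR). With library totals as the scaling it was 0.212. HNRNPA3 and HNRNPA1L3 did not pass.

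Other U1 and U2 proteins and early factors came to 18 tested genes, of which 13 fell and 3 rose. PUF60, which helps U2 bind, went from 36.4, 36.7 and 38.3 FPKM to 27.6, 27 and 26 FPKM, with no overlap (log2 fold change -0.50, SE 0.043, edgeR adjusted p = 2.91e-08). RBM17, a U2-associated factor on chromosome 10, went from 31.7 ± 0.48 to 23.6 ± 0.51 FPKM (SD, n = 3). SNRPB2, the U2 protein B″ on chromosome 20, went from 39.9 ± 3.52 to 29.9 ± 1.3 FPKM (SD, n = 3).

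The 3 proteins specific to U1 did not move together. SNRPC, encoding U1-C, was the most abundant of the class and fell from 134, 140.1 and 141 FPKM to 105, 115 and 103 FPKM, with no overlap. SNRPA, encoding U1-A, rose from 65.7, 63.2 and 63.5 FPKM to 77.2, 79.5 and 76.5 FPKM, also with no overlap (log2 fold change 0.24, SE 0.041, edgeR adjusted p = 6.6e-05). SNRNP70, the third of them, fell by 0.13 on the log2 scale. The other rises were small: U2SURP by 0.12, and the helicase gene DDX5 by 0.11, on the log2 scale. Both lost the call without an expression filter, with adjusted p of 0.108 and 0.151, and on leaving out single libraries (edgeR): U2SURP without mutant replicate 3 (0.0515) or wild-type replicate 3 (0.0686), DDX5 without mutant replicates 1 (0.0888) or 2 (0.0544) or wild-type replicate 1 (0.0624). U2AF1, the small subunit of the factor that reads the 3′ splice site, was below the filter, at 0.41, 0.78 and 0.71 FPKM in the wild type and 0.41, 0.38 and 0.54 FPKM in the mutant. GRCh38 holds a near-identical copy of it, so these values need not be its true level. It was not tested in the fit with the filter; without the filter it was called lower (log2 fold change -0.59, SE 0.158, edgeR adjusted p = 0.00101), although wild-type replicate 1 lay within the range of the mutant libraries.

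Of 11 further tri-snRNP genes, 8 fell and none rose. SNU13, the protein that binds the kink-turn of U4 snRNA, on chromosome 22, went from 54.5, 52.9 and 56.3 FPKM to 41.9, 43.4 and 41.4 FPKM, with no overlap (log2 fold change -0.40, SE 0.044, edgeR adjusted p = 4.46e-07). DDX23, a helicase of the tri-snRNP, went from 29.1 ± 1.17 to 22.8 ± 0.57 FPKM (SD, n = 3). PPIH, a cyclophilin of the U4/U6 particle, fell by 0.33 and ZMAT2, the most abundant of the class, by 0.27 on the log2 scale. SNRNP200, the helicase that unwinds U4 from U6, did not pass, at -0.01.

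The PRP19 complex and catalytic step factors came to 21 tested genes, of which 15 fell and none rose. PQBP1, a gene of X-linked intellectual disability that binds U5 proteins, went from 25.5, 23 and 24.4 FPKM to 16.3, 19.2 and 16 FPKM. The mutant libraries were all lower, with replicate 2 the closest (log2 fold change -0.54, SE 0.065, edgeR adjusted p = 1.51e-06). RBM22, which contacts the catalytic RNA, went from 39.8 ± 2.41 to 28.5 ± 0.52 FPKM, and CWC15 from 26.2 ± 1.97 to 19.4 ± 0.64 FPKM (SD, n = 3). BCAS2, a PRP19 complex subunit and the most abundant of the class, fell by 0.35 on the log2 scale. The helicase genes DHX8 and DHX38, which act around the catalytic steps, did not pass, at 0.01 and 0.04.

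The exon junction complex, the export factors and the cap-binding complex act on the spliced mRNA. Of 12 tested genes, 8 fell and 2 rose. ACIN1, a partner of the exon junction complex, had the second largest fall of the classed members, from 57.1, 56.7 and 53.7 FPKM to 39, 38.6 and 38 FPKM, 2 groups with a wide gap (1.48-fold lower, log2 fold change -0.57, SE 0.039, edgeR adjusted p = 1.72e-09). MAGOH, a core subunit, fell by 0.36 and ALYREF, the mRNA export adaptor, by 0.26 on the log2 scale. Of the THO complex, the 3 genes among the tested members were split. THOC1 went from 7.61 ± 0.15 to 5.75 ± 0.26 FPKM, whereas THOC3 went from 26 ± 1.2 to 31.9 ± 1.01 FPKM and THOC2 from 21.1 ± 0.25 to 23.9 ± 1.04 FPKM (SD, n = 3), each without overlap. THOC2 was not called without an expression filter, with an adjusted p of 0.0548 (edgeR).

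All 5 genes of the last class fell. RBMX, an RNA-binding protein of the hnRNP G family, went from 104, 106 and 108 FPKM to 86.4, 86.8 and 87.2 FPKM, with no overlap (log2 fold change -0.32, SE 0.036, edgeR adjusted p = 8.63e-07). Its intronless relative RBMXL1 fell by 0.40 and PCBP1, a poly(C)-binding protein, by 0.33 on the log2 scale.

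**Figure D4:**
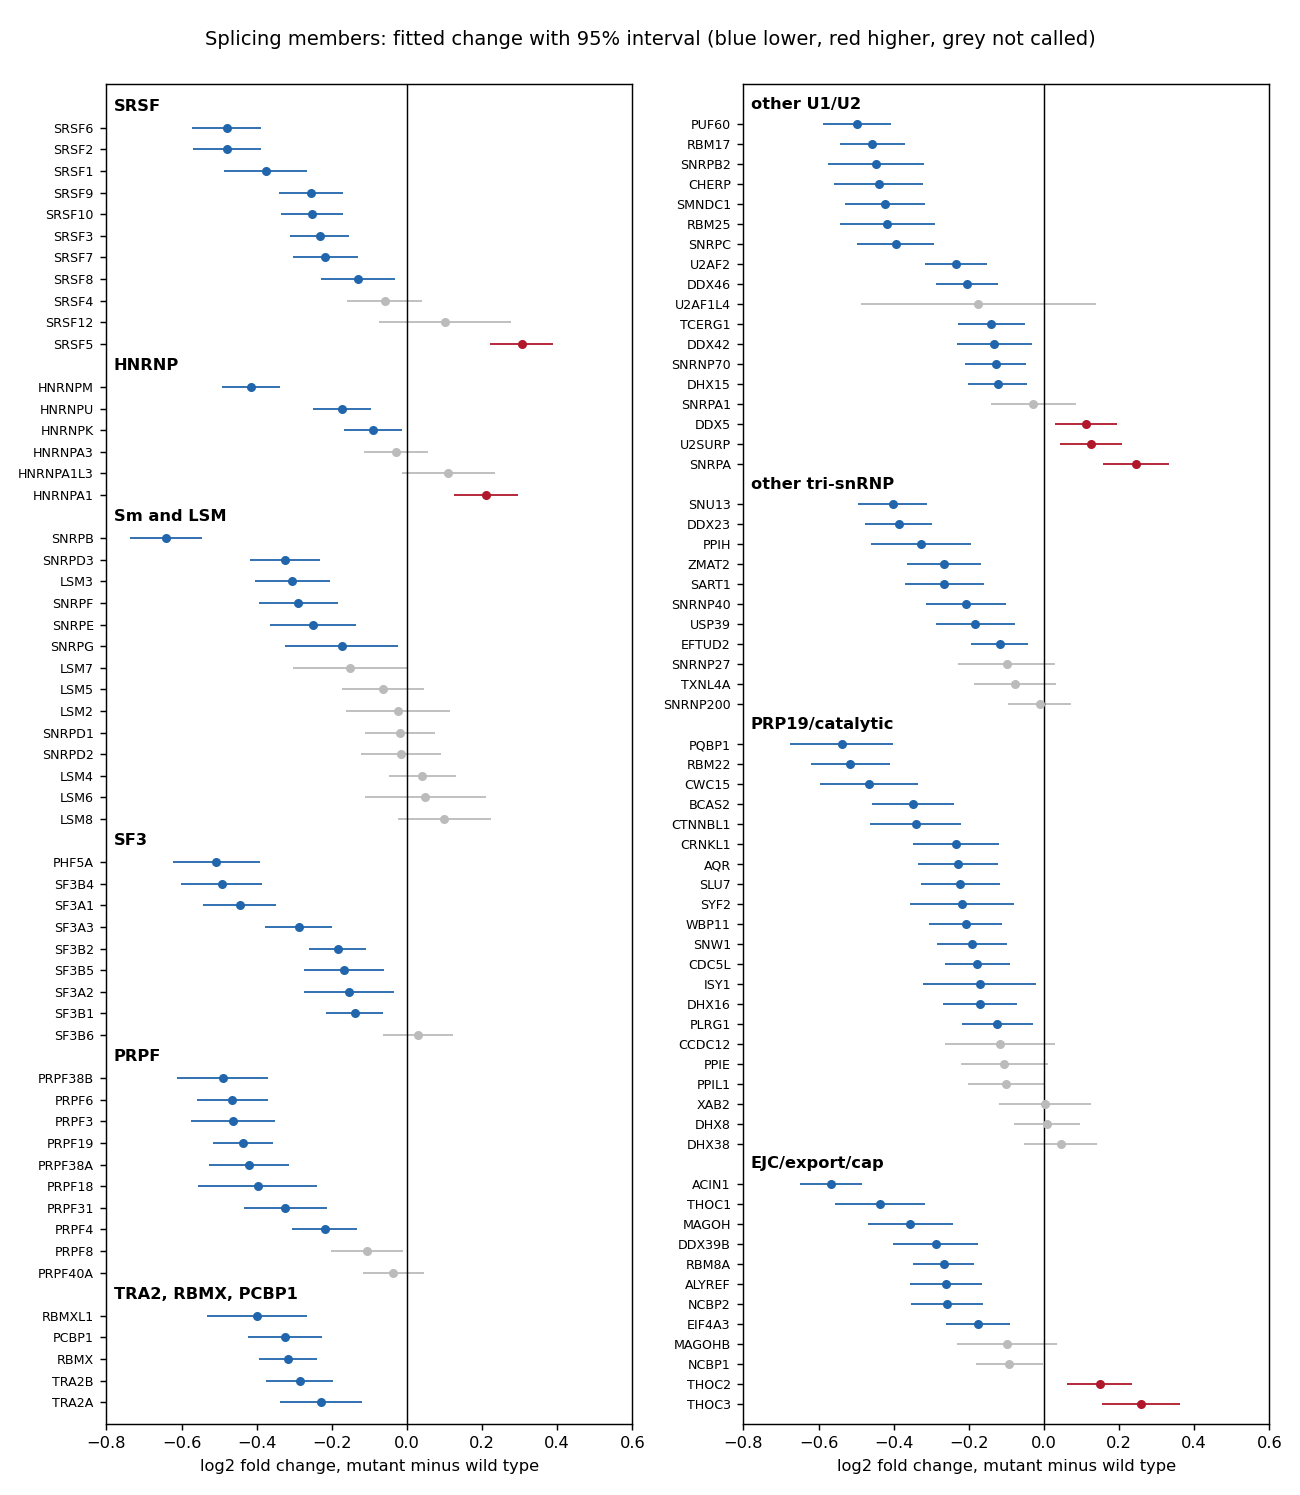
Fitted log2 fold change, mutant minus wild type, with its 95% interval for the 117 classed members, in 10 classes; blue points fell, red points rose and grey points were not called. SNRPB lies lowest at -0.64 and SRSF5 highest at 0.31, and the 7 red points are SRSF5, HNRNPA1, SNRPA, U2SURP, DDX5, THOC2 and THOC3.

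Genes that carry the term outside these classes were counted apart, a split that was made after the table was seen. Of the 307 pseudogenes 24 were tested, of which 2 fell and 2 rose, with a median of -0.12. Their median level was 9.25 FPKM, against 34.9 FPKM for the classed members. Of the 54 other genes 25 were tested, of which 10 fell and 6 rose, with a median of -0.13. Among these were genes without a known part in splicing such as CTCF and RAB5A, which did not pass. The largest falls among these other genes were SLIRP at -0.60 and KIFBP at -0.59 on the log2 scale, and the largest rise was 0.60. With all of them counted, 94 of 166 tested members fell and 15 rose, with a median of -0.19. CTCF, RAB5A, SLIRP and KIFBP were picked after their values were seen.

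Splicing genes that lack the term were counted from separate lists. The assembly machinery that loads Sm rings, with the SMN complex and the PRMT5 methylosome, had 12 of 17 tested genes lower and none higher, with a median of -0.24. DDX20, the helicase of the SMN complex, went from 12.2, 12.3 and 11.2 FPKM to 8, 7.8 and 8.12 FPKM, and PRMT5, which methylates Sm proteins, went from 91.2 ± 2.42 to 67.6 ± 2.38 FPKM (SD, n = 3). Neither gene's groups overlapped. The SR protein kinases were divided, 5 of 8 lower and 3 higher: CLK1 went from 7.28, 9.77 and 10.6 FPKM to 4.55, 4.23 and 4.5 FPKM (log2 fold change -1.09, SE 0.106, edgeR adjusted p = 1.21e-07), and PRPF4B fell by 0.44 on the log2 scale. Wild-type replicate 1 was the lowest of the CLK1 wild-type values, still above each mutant library.

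The minor spliceosome, which removes the rare U12-type introns, had 5 of 13 tested genes lower and 4 higher, with a median of -0.12. SCNM1 went from 19.5 ± 1.05 to 14.2 ± 0.7 FPKM (SD, n = 3), and DHX32 rose by 0.48 on the log2 scale although it lies on chromosome 10. Of 20 hnRNP genes without the term, 9 fell and 3 rose, with a median of -0.05. HNRNPF, on chromosome 10, had the largest change there, from 156, 155 and 158 FPKM to 96.1, 99 and 97.3 FPKM, with no overlap (log2 fold change -0.71, SE 0.037, edgeR adjusted p = 5.9e-11). HNRNPDL fell by 0.32 on the log2 scale. Of 25 other splicing regulators, 13 fell and 6 rose. SFPQ, a paraspeckle protein, fell from 138 ± 1.33 to 93 ± 3.29 FPKM (SD, n = 3), and TIAL1, on chromosome 10, by a log2 fold change of -0.57. The largest change there was a rise, MBNL2 at 0.64. The share that fell was 70.6% in the assembly list, 62.5% of SR protein kinases, 52% of regulators, 45% of hnRNP genes and 38.5% of the minor spliceosome. Among all genes tested 28.7% fell, and among those at the level of the classed members 44.5% fell. No list was tested against these shares.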

How the data were processed

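The 6 libraries of poly(A) RNA held 3 mutant and 3 wild-type samples, grouped by the genotype in the labels. The deposited table holds counts and FPKM per gene and library; cutadapt, HISAT2 2.0.1, HTSeq and GRCh38 are named in the submitters' processing notes for what the authors did. The labels and the table name no annotation release and no strand setting for the counting. The members, classes and lists were chosen with earlier results of these data known.

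The 12550 genes whose mean FPKM reached 1 were fitted with edgeR 4.0.16 (R 4.3.3) on the deposited counts, scaled by TMM (factors 0.980 to 1.017), in a two-sided test of genotype, the 1 factor, with Benjamini-Hochberg adjustment. Fold changes come from this fit; the FPKM values are as the authors deposited them. The labels do not say whether the libraries are separate cultures, so p-values measure the spread between these libraries. No pair of libraries was a duplicate (chi-square per degree of freedom at least 2.50). The test was checked on simulated data.

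Named in each class were up to 3 rises and 3 falls with the largest change among called members without overlap and with at least 5 FPKM in the higher group, the most abundant member, and U2AF1, SF3B1, PRPF8 and SRSF2; from each outside list, up to 2 called genes with the smallest adjusted p. Any other gene named in the text, such as SNRNP70, SNRNP200, SF3B3, LSM1, SRSF4 or DHX8, was chosen after its values were seen. Alternatives were other scalings and filters, DESeq2 1.42.0, limma 3.58.1 on log2(FPKM + 1) and log2(FPKM + 0.1), a replicate block, each library left out, and, added after seeing the data, counts summed with pseudogenes.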

Additional observations from a re-analysis of the deposited data

How the results depend on the processing

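Class medians kept their sign under every alternative run; over these the median of the classed members ran from -0.25 to -0.17 and their number lower from 69 to 87, the lower end without the members on 4 chromosomes. Of the 82 that fell, 69 were called lower in each of the 17 refits, and 4 of the 7 that rose were called higher in each. Only the values that moved follow. A median counted as moved where it changed by more than the SD between libraries of its group. With library totals as the scaling, medians were -0.15 (all members), -0.18 (classed members), -0.20 (SRSF), -0.023 (HNRNP), -0.15 (SF3), -0.37 (PRPF), -0.15 (other U1 and U2), -0.17 (other tri-snRNP), -0.15 (PRP19 and catalytic), -0.22 (junction, export and cap) and -0.28 (TRA2 and RBMX), and 2 HNRNP genes were called higher in place of 1. In limma on log2(FPKM + 0.1), medians were -0.16 (all members), -0.18 (classed members), -0.028 (HNRNP), -0.15 (SF3), -0.37 (PRPF), -0.15 (other U1 and U2), -0.17 (other tri-snRNP), -0.16 (PRP19 and catalytic), -0.23 (junction, export and cap) and -0.28 (TRA2 and RBMX). In limma on log2(FPKM + 1), medians were -0.14 (all members), -0.17 (classed members), -0.20 (SRSF), -0.028 (HNRNP), -0.15 (SF3), -0.33 (PRPF), -0.13 (other U1 and U2), -0.17 (other tri-snRNP), -0.16 (PRP19 and catalytic), -0.22 (junction, export and cap) and -0.28 (TRA2 and RBMX). With a mean FPKM of at least 5, medians were -0.16 (all members), -0.17 (classed members), -0.20 (SRSF), -0.013 (HNRNP), -0.14 (SF3), -0.37 (PRPF), -0.16 (other U1 and U2), -0.16 (other tri-snRNP), -0.14 (PRP19 and catalytic), -0.21 (junction, export and cap) and -0.27 (TRA2 and RBMX), and 2 HNRNP genes were called higher in place of 1. Without an expression filter, medians were -0.25 (classed members), -0.27 (SRSF), -0.13 (HNRNP), -0.22 (SF3), -0.24 (other U1 and U2), -0.25 (other tri-snRNP), -0.23 (PRP19 and catalytic) and -0.30 (junction, export and cap), and the number called higher was 4 over all classed members, 1 among other U1 and U2 genes and 1 among junction, export and cap genes. With upper quartile scaling, medians were -0.15 (all members), -0.18 (classed members), -0.19 (SRSF), -0.019 (HNRNP), -0.14 (SF3), -0.37 (PRPF), -0.15 (other U1 and U2), -0.17 (other tri-snRNP), -0.15 (PRP19 and catalytic), -0.22 (junction, export and cap) and -0.28 (TRA2 and RBMX), and 2 HNRNP genes in place of 1 and 1 Sm or LSM gene in place of 0 were called higher. Without members on chromosomes 10, 16, 20 and 22, medians were -0.18 (classed members), -0.090 (HNRNP), -0.044 (Sm and LSM), -0.37 (PRPF) and -0.14 (other U1 and U2). With 1 library left out, medians ran from -0.26 to -0.17 (other tri-snRNP), -0.21 to -0.17 (all members), -0.171 to -0.063 (Sm and LSM), -0.44 to -0.37 (PRPF), -0.074 to -0.052 (HNRNP), -0.22 to -0.17 (other U1 and U2) and -0.28 to -0.23 (junction, export and cap), and 1 to 2 HNRNP genes were called higher. SNRPD2, not called, was above 0 with library totals (0.020), upper quartiles (0.025), limma (0.014 with either pseudocount), a mean FPKM of at least 5 (0.030) and without mutant replicate 1 (0.046); it ran from -0.071 to 0.046 over the libraries left out. With the replicate block, 81 classed members fell and 6 rose, with a median of -0.22, and HNRNPK and DDX5 lost their calls. Same-numbered libraries correlated at 0.00385, -0.0435 and -0.0128 in their deviations, and each mutant library correlated best with a wild-type library of another number. All correlations between the groups lay from -0.0435 to 0.0444. Values this near 0 show no shared deviation, but they cannot tell whether the numbers pair the libraries. The cause of these shifts was not tested. Genes under 1 FPKM, such as U2AF1, were tested only without the expression filter.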
